A study of Mus musculus with 6 samples.

Results

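Integrins are the receptors that hold a cell to its matrix, and the adaptors of focal adhesions tie them to actin. Levels of 37 mouse genes of this machinery, of 20659 genes named on the arrays, were examined in primary osteoblasts. The genes were taken by name and family and not by their values, although earlier results of these data were known. They were 19 subunits that bind matrix proteins, 7 subunits used mainly by leukocytes, the integrin-like gene Itgbl1 and 10 adaptors. Probes were found for 35 of the 37, since no probe matched Itgae or Itga10 by accession. A tested probe was available for 31, meaning that at least 2 of the 6 arrays read it well above background. The other 4 were Itga2b, Itgb6 and Itgb8, which were not well above background on any array, and Itga3, which was so only on the first cabozantinib array.

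The cells were calvarial osteoblasts of newborn CD1 mice, a primary culture from the flat bones of the skull and not a cloned line. In all, 6 single-colour arrays were hybridised, 2 for each of 3 groups. Undifferentiated cells were grown to confluence in basal medium with serum. Differentiated cells were kept 30 days in differentiation medium, and the last group had the same 30 days in that medium with cabozantinib at 100 nM, the dose in the study's methods. Cabozantinib is an inhibitor of several receptor tyrosine kinases that include MET and VEGFR2. The labels and the array methods give 30 days, while another passage of the study names an earlier day. No genotype differed between the groups, and nothing in the labels states that the 2 arrays of a group came from separate cultures, so each p-value measures the spread between these arrays, which may be technical. The undifferentiated and differentiated arrays shared 1 slide and scan, while both cabozantinib arrays were on another slide. Slide and cabozantinib therefore cannot be told apart.

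Brightness differed between arrays. The signal at the 75th percentile of probes was 625 and 1773 before differentiation, 1095 and 649 after it, and 1277 and 961 after it with cabozantinib. Saturation was found at no spot. The share of spots well above background was 61.1% and 72.9%, 64.8% and 67.4%, and 58.9% and 58.8% in the same order. Each level given here is the log2 of the signal minus the log2 of that percentile on the same array, so that 0 is the 75th percentile and 1 unit is a 2-fold difference. Levels belong to a probe and cannot be compared between genes as amounts of RNA. The word brightest therefore describes the signal of a probe, and a summed level is carried mostly by the bright probes. The SD of the difference between replicate arrays over all probes was 0.87 before differentiation, 0.73 after it and 0.64 with cabozantinib. Of 10 osteoblast markers with a tested probe, Col1a1, the chain of type I collagen that makes up most of bone matrix, was the brightest, and 5 rose with differentiation, Phex, Bglap2, Dmp1, Mepe and Ibsp, by log2 changes of 6.38, 5.06, 3.99, 2.44 and 2.20. Alpl, the alkaline phosphatase of mineralising cells, could be read on all 6 arrays, at levels of 3.87 and 3.23, 3.96 and 4.12, and 4.09 and 4.38. Runx2, the osteoblast lineage factor, was well above background on only 3 of the 6. Of the 10 markers 7 were higher after differentiation, and the others were lower without passing. Pth1r went from 2.24 and 1.82 to 0.28 and 0.92, and Sp7 from -4.40 and -2.63 to -6.82 and -3.90. Runx2 went from -4.54 and -5.21 to -7.54 and -6.04, not well above background after differentiation. The 5 that rose stand beside 4.97% of all probes called higher. No probe matched Bglap by accession.

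An integrin is a pair of an alpha and a beta chain, and the pair decides what is bound. The chain alpha5 pairs with beta1 to bind fibronectin, alphav chains bind proteins with the RGD tripeptide such as vitronectin and osteopontin, the chains alpha1, alpha2 and alpha11 bind collagens, and alpha6, alpha7 and beta4 bind laminins. In bone, such receptors hold osteoblasts to the matrix they lay down. The chains paired with beta2 are carried by leukocytes and are textbook markers of macrophages and dendritic cells. Inside the cell, talin and kindlin bind the beta tail and switch the receptor to its active form, vinculin and paxillin join the complex, focal adhesion kinase signals from it, and integrin-linked kinase with parvin links it to actin.

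The sequences before 4 genes that the results turn on are shown so that the differing promoters can be compared: Itgax and Itgam, neighbours on chromosome 7 with 0 protein-coding genes between them that had different changes, Itga4, which rose, and Itga5, which fell. They are the 250 bases before the RefSeq start in GRCm38.p6, 5′ to 3′ on the gene's strand. These lie at chr7:128129300-128129549 (Itgax, plus strand), chr7:128062390-128062639 (Itgam, plus), chr2:79255176-79255425 (Itga4, plus) and chr15:103366792-103367041 (Itga5, minus). Capitals mark exact matches, on either strand, to GAGGAA (the core bound by PU.1, a factor of myeloid cells), TGTGGT (Runx), GGGCGG (GC box) or TGACTCA (AP-1). No letters were shared between matches.
Itgax: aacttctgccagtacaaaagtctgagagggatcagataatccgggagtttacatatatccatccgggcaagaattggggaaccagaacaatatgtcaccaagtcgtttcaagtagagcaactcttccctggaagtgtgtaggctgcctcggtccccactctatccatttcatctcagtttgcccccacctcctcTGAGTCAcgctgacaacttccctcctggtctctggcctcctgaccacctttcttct
Itgam: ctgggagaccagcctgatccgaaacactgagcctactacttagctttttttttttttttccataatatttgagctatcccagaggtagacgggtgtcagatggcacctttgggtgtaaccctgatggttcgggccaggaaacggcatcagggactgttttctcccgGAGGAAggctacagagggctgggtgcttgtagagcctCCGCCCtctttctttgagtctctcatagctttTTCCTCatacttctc
Itga4: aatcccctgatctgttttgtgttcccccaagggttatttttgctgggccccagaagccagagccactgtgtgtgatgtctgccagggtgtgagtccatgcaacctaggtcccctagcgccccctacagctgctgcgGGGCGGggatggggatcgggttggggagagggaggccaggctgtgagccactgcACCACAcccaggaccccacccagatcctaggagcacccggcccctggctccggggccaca
Itga5: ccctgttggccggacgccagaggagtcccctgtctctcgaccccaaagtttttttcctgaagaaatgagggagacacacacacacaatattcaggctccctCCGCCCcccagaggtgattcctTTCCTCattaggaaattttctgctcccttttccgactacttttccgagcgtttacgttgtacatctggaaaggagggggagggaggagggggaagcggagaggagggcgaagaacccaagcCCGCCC
The Itgax stretch held 1 AP-1 match that starts 56 bases before the gene's start and none of the other 3. Itgam had PU.1 matches at 84 and 15 bases before the start and a GC box match at 47. Itga4 had a Runx match at 60 and a GC box match at 114, and Itga5 a PU.1 match at 127 and GC box matches at 149 and 6. Such letters are common. GAGGAA stood in 23.3% of 32851 mouse promoters of this length, TGTGGT in 14.0%, GGGCGG in 32.7% and TGACTCA in 4.5%. Of the 28 entries for 25 genes of the set, 9, 5, 12 and 2 held them. A match is a description of letters and not of binding.

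The first comparison set cells after 30 days in differentiation medium against undifferentiated cells on the same slide. Among the 31 genes, 7 rose and 1 fell at a limma adjusted p under 0.05. Of all 27230 probes tested, 4.97% rose and 5.06% fell. Among the 7, Itgad and Itga2 were not well above background on either undifferentiated array and were tested only through the groups in which they were high, so a difference was built into their test, and 5 remain to be set against that share. Itgax, Itgad and Itgb2 of the leukocyte chains rose, as did Itga4, Itga2 and Itga8 of the matrix-binding chains and Itgbl1, while Itga5 fell. None of the 10 adaptors passed by its brightest probe. The median log2 change was 2.10 over the 6 leukocyte chains, 0.17 over the 14 matrix-binding chains and -0.64 over the adaptors, beside 0.08 over all probes. The leukocyte median includes Itgad, and it was 1.48 with probes restricted to those above background on all arrays. The matrix-binding median turned to -0.24 without undifferentiated replicate 2 and to just below 0 without differentiated replicate 2. By the looser limit of more than 2-fold with an unadjusted p under 0.05, 13 of the 31 passed, beside 21.2% of all probes.

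**Figure D1:**
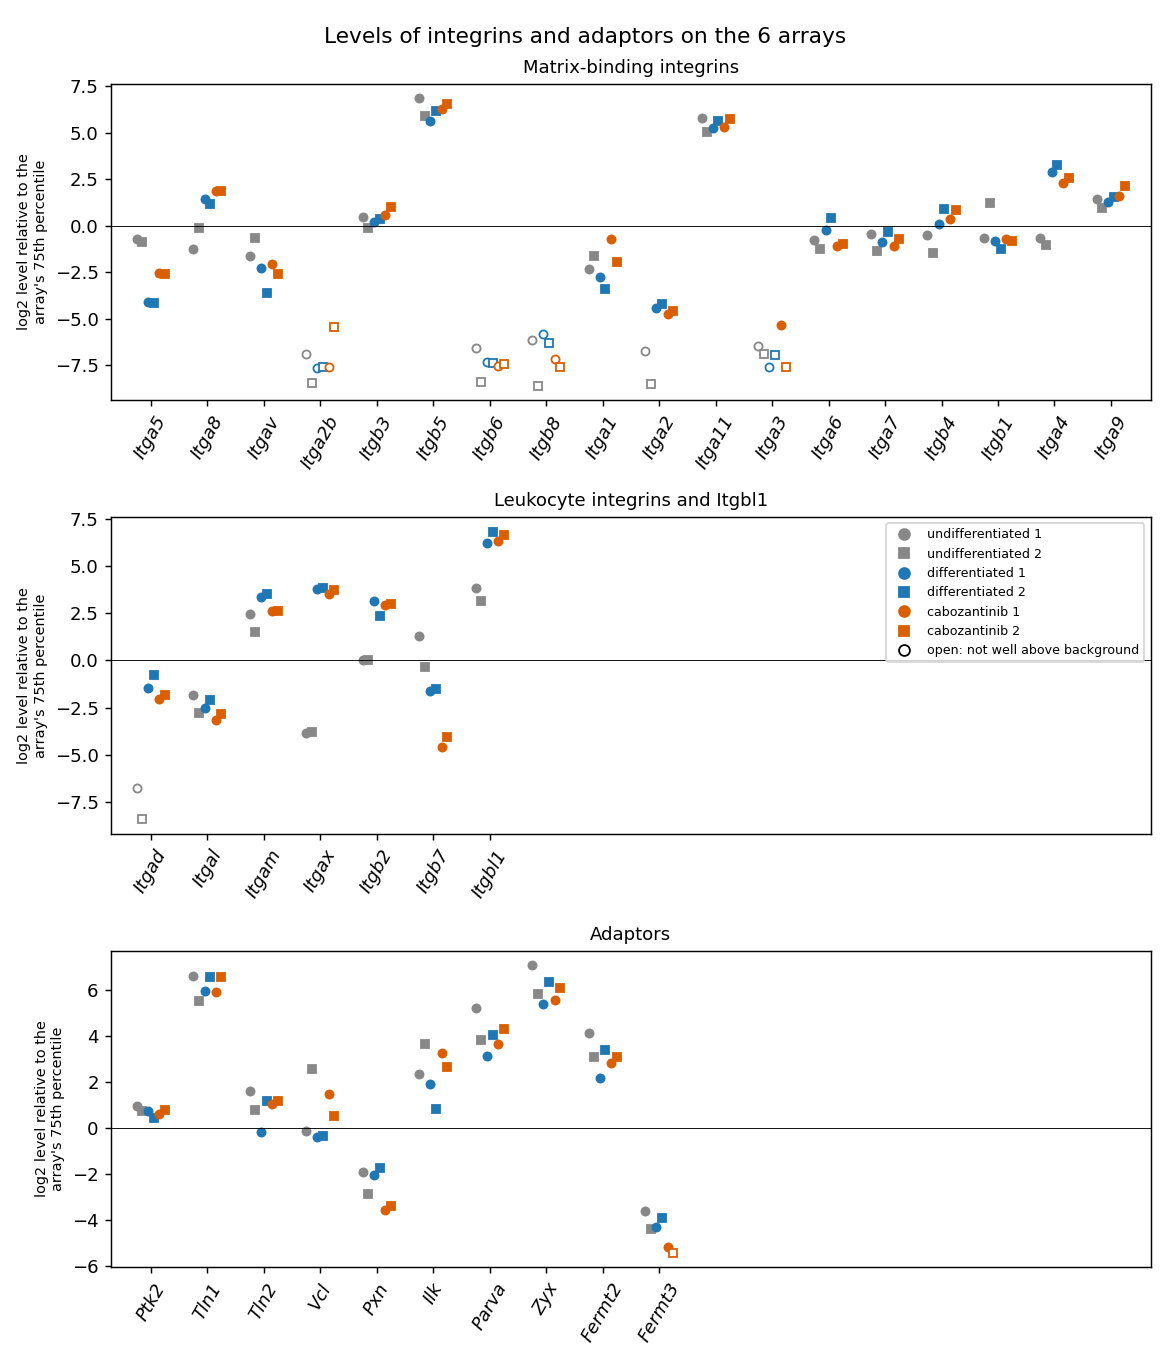
Log2 level relative to the array's 75th percentile (vertical axis) of each gene's brightest probe on the 6 arrays, with 1 point per array, grey for undifferentiated, blue for differentiated and orange for cabozantinib, open where not well above background. Itgax, Itgad, Itgb2, Itga4 and Itgbl1 stood higher in both later groups, and Itga5 stood lower.

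Among the receptors for fibronectin and other RGD proteins, the alpha5 chain of the fibronectin receptor fell. Itga5 had log2 levels of -0.73 and -0.87 in undifferentiated cells and -4.10 and -4.14 in differentiated cells. The groups were far apart and the replicates close, with a log2 change of -3.32 (SE 0.48), which is 9.98-fold lower (limma adjusted p = 0.00271). With normexp background correction the log2 change was -2.29 and did not pass (limma adjusted p = 0.0558). Itga8, whose chain binds nephronectin, went from -1.24 and -0.13 to 1.44 and 1.16. Its groups did not overlap and the log2 change was 1.98 (SE 0.54, limma adjusted p = 0.0456), a call close to the threshold that was lost without any 1 of undifferentiated replicate 1 (0.0546), differentiated replicate 1 (0.463) or 2 (0.104), or either cabozantinib array (0.0648 for each). Itgav was at -1.62 and -0.68 and then at -2.27 and -3.60, a log2 change of -1.78 (SE 0.61) that did not pass (limma adjusted p = 0.107; 0.0311 without undifferentiated replicate 1), and ran from -2.72 to -0.85 with 1 array left out. A second, dimmer Itgav probe had a log2 change of -0.70 (limma adjusted p = 0.54). Of the beta chains that pair with alphav, Itgb3 and Itgb5 did not pass. Itgb3 had log2 levels of 0.45 and -0.13 against 0.19 and 0.39, and Itgb5 6.87 and 5.90 against 5.62 and 6.17, so that the groups overlapped for both (limma adjusted p = 0.964 and 0.77).

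The collagen receptor chains with a tested probe were Itga2, Itga1 and Itga11. Itga2 was not well above background on either undifferentiated array (log2 levels of -6.74 and -8.51) and was above it on both differentiated arrays (-4.41 and -4.20). Because it was tested only through the groups in which it was high, its difference is given as a bound, at least 3.40-fold higher (limma adjusted p = 0.0075), and its p is not read as support. With normexp background correction its log2 change was 0.46 (limma adjusted p = 1.0). Itga1 was at -2.35 and -1.65 before and -2.73 and -3.41 after, a log2 change of -1.08 (limma adjusted p = 0.352; 0.0417 without undifferentiated replicate 1) that ran from -1.91 to -0.24 with 1 array left out. Itga11, the collagen I receptor chain of mesenchymal cells, was at 5.79 and 5.06, then 5.27 and 5.64, a log2 change of 0.03 (limma adjusted p = 0.993). For Itga1 the groups lay side by side without overlap, and for Itga11 they lay over each other.

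None of the laminin-binding chains passed. Itga6 was at -0.77 and -1.27 in undifferentiated and -0.24 and 0.41 in differentiated cells (limma adjusted p = 0.261). Itgb4, the long beta chain that joins alpha6 in hemidesmosomes, was at -0.48 and -1.45 and then at 0.10 and 0.92 (limma adjusted p = 0.16; 0.0266 without undifferentiated replicate 1, with a log2 change from 0.66 to 2.30 when 1 array was left out). Levels of both were higher on each differentiated array than on either undifferentiated array, by log2 changes of 1.11 and 1.48. Itga7, better known from muscle, had overlapping groups at -0.45 and -1.34 against -0.89 and -0.33. Itgb1, the chain shared by most matrix receptors, was at -0.66 and 1.22 in undifferentiated cells and -0.83 and -1.24 in differentiated cells. The undifferentiated replicates of Itgb1 were further apart than the group means, and the log2 change of -1.32 did not pass (limma adjusted p = 0.272; 0.0253 without undifferentiated replicate 1), and it ran from -2.39 to -0.25 with 1 array left out.

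The alpha4 chain, which joins beta1 or beta7 to bind VCAM-1 and a splice form of fibronectin, had the greatest rise among the matrix-binding chains that were well above background on all 6 arrays. Itga4 was at -0.63 and -1.04 in undifferentiated and 2.90 and 3.26 in differentiated cells, a log2 change of 3.92 (SE 0.50) or 15.1-fold (limma adjusted p = 0.00157). Leaving out any 1 array kept the log2 change between 3.55 and 4.28. Its relative Itga9, which binds tenascin-C among others, was at 1.44 and 0.98 and then 1.26 and 1.57, with overlapping groups and a log2 change of 0.20.

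Itgbl1, a secreted protein with the cysteine-rich repeats of a beta chain but no membrane anchor, rose from log2 levels of 3.80 and 3.11 to 6.20 and 6.82. The log2 change was 3.05 (SE 0.53), or 8.3-fold (limma adjusted p = 0.00598; 0.0533 without differentiated replicate 2). With cabozantinib it stood at 6.32 and 6.66, inside the range of the differentiated arrays.

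The leukocyte chains held the largest changes of the set. Itgax, which encodes CD11c, was at -3.83 and -3.82 in undifferentiated cells and 3.80 and 3.84 in differentiated cells, well above background on all arrays, a log2 change of 7.64 (SE 0.48) or 199.9-fold (limma adjusted p = 0.000135). Itgad, which encodes CD11d, was too dim to read before differentiation (-6.75 and -8.43, not well above background) and was at -1.49 and -0.76 after differentiation. By the processed signal it was at least 30.9-fold higher (limma adjusted p = 0.000455). With normexp background correction its log2 change was 2.35 (limma adjusted p = 0.139), which is less than that bound. Itgad too was tested only through the groups in which it was high. Itgb2, the beta chain these share, was at 0.03 on both arrays before and at 3.14 and 2.35 after differentiation, a log2 change of 2.71 (SE 0.50) or 6.56-fold (limma adjusted p = 0.00829; 0.12 without differentiated replicate 1). For Itgax and Itgb2 the groups were apart by more than their replicates. Itgam, which encodes CD11b, was at 2.46 and 1.48 and then 3.37 and 3.53 by its brightest probe, a log2 change of 1.48 (limma adjusted p = 0.119; 0.0294 without undifferentiated replicate 1) that ran from 0.95 to 2.02 with 1 array left out. Its other 2 tested probes had log2 changes of 0.12 and 0.06. Itgal, the CD11a chain of lymphocytes and other leukocytes, had overlapping groups at -1.83 and -2.77 against -2.55 and -2.12. Its dimmer tested probe also had overlapping groups, at -6.18 and -5.41 against -4.15 and -5.48, and was well above background on only 3 of the 6 arrays. Itgb7, which pairs with alpha4 or alphaE on lymphocytes and mast cells, was at 1.28 and -0.37 and then -1.60 and -1.50, a log2 change of -2.0 (SE 0.61, limma adjusted p = 0.0718; 0.0414 without undifferentiated replicate 2) that ran from -2.99 to -1.01 with 1 array left out. Not every leukocyte chain had the direction of Itgax. In a bulk sample, more cells of a type and more RNA per cell cannot be told apart.

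**Figure D2:**
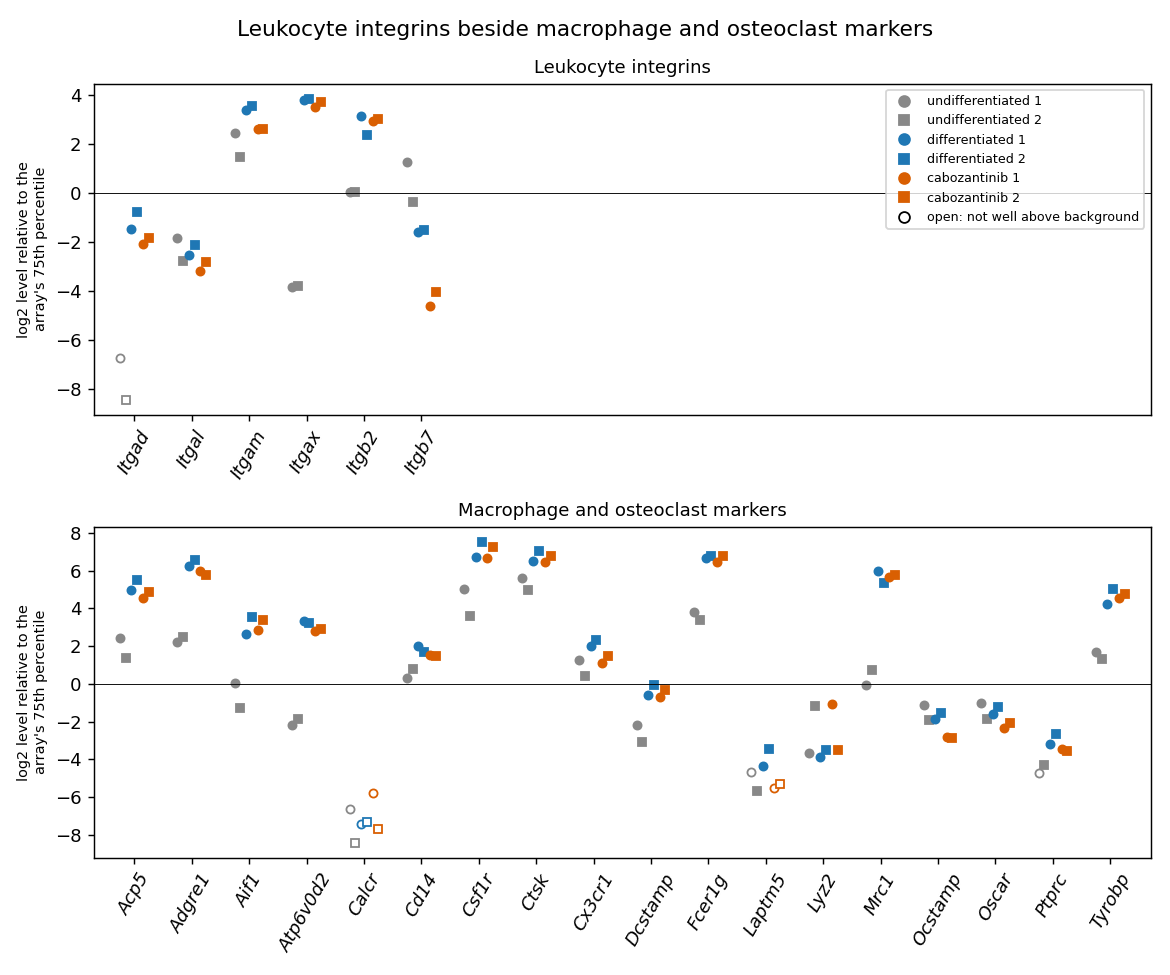
Log2 levels relative to the array's 75th percentile of the leukocyte integrin chains (upper panel) and of the macrophage and osteoclast markers (lower panel), 1 point per array, open where not well above background. Itgax, Itgad and Itgb2, and markers such as Mrc1 and Adgre1, were lower on both grey undifferentiated arrays than on the 4 others.

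Many markers of macrophages and osteoclasts rose as Itgax, Itgad and Itgb2 did. Of 19 such genes listed, 18 had a probe and 17 were tested. Among the 17, 9 rose and 0 fell, beside 4.97% and 5.06% of all probes. Their median log2 change was 2.31, beside 0.08 over all probes. Their summed level, in units of the array's 75th percentile signal, was 116 and 71.0 before differentiation, 512 and 676 after it, and 460.5 and 562 with cabozantinib. The 6 leukocyte chains summed to 9.32 and 4.80, 34.0 and 32.2, and 25.4 and 27.8. Csf1r, the M-CSF receptor, rose from log2 levels of 5.02 and 3.58 to 6.74 and 7.54 (change 2.84, limma adjusted p = 0.0183), Adgre1, which encodes F4/80, from 2.24 and 2.51 to 6.23 and 6.59 (change 4.04, limma adjusted p = 0.00126), and Mrc1, the mannose receptor, from -0.05 and 0.76 to 5.96 and 5.37. Acp5, the tartrate-resistant phosphatase of osteoclasts, rose by a log2 change of 3.34 (limma adjusted p = 0.00489). Ctsk, the cathepsin of osteoclasts and the brightest of the list by its mean over the 6 arrays, had a log2 change of 1.49 that did not pass (limma adjusted p = 0.119), and the pan-leukocyte gene Ptprc one of 1.61 (limma adjusted p = 0.0738). Others of the list were not higher. Lyz2, the lysozyme of myeloid cells, was at -3.64 and -1.15 and then -3.85 and -3.50 (log2 change -1.28, limma adjusted p = 0.547), and the osteoclast genes Ocstamp and Oscar had log2 changes of -0.19 and 0.02. The calcitonin receptor Calcr was not well above background on any array. The part of these cells in the rise of the leukocyte chains was not tested.

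Markers of other lineages were counted in the same way, beside 4.97% of all probes higher and 5.06% lower. In lists this short a count of 0 or 1 is not read as a result. Among lymphocyte markers 0 of 7 tested rose or fell, with Cd4 the brightest (log2 change 1.67, limma adjusted p = 0.069) and Cd3e at 0.13. Granulocyte and mast cell markers had 2 of 7 lower and 0 higher, with Elane the brightest. The 2 were the paired neutrophil proteins S100a9, at least 296-fold lower, and S100a8 (log2 change -2.66, limma adjusted p = 0.00822). S100a9 was tested only through the undifferentiated arrays, on which it was high. Of 4 platelet markers 1 fell, the chemokine gene Ppbp (log2 change -4.93, limma adjusted p = 0.000675), while the brightest, Pf4, had a log2 change of -0.03 and Gp9 stood at -3.37 and -3.57 against -3.13 and -3.03. Of 5 endothelial markers 1 rose, which was Cdh5, the cadherin of endothelial junctions (log2 change 2.18, limma adjusted p = 0.0228), beside 0.52 for Pecam1. Of 8 muscle markers 1 fell, Acta1, the brightest, by a log2 change of -2.58, and of 4 epithelial markers 1 fell, the keratin gene Krt18, by -4.67. The brightest endothelial marker, Kdr, was at 0.16 and -0.61 and then -0.40 and 0.11. Krt5, the brightest epithelial marker, was at -1.31 and -2.18 and then -2.06 and -1.68. Desmin (Des) and Epcam were not well above background on any array. Ppbp and Krt18 were not so on differentiated replicate 1, nor Cdh5 on undifferentiated replicate 1, so the changes of these 3 are not exact.

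**Figure D3:**
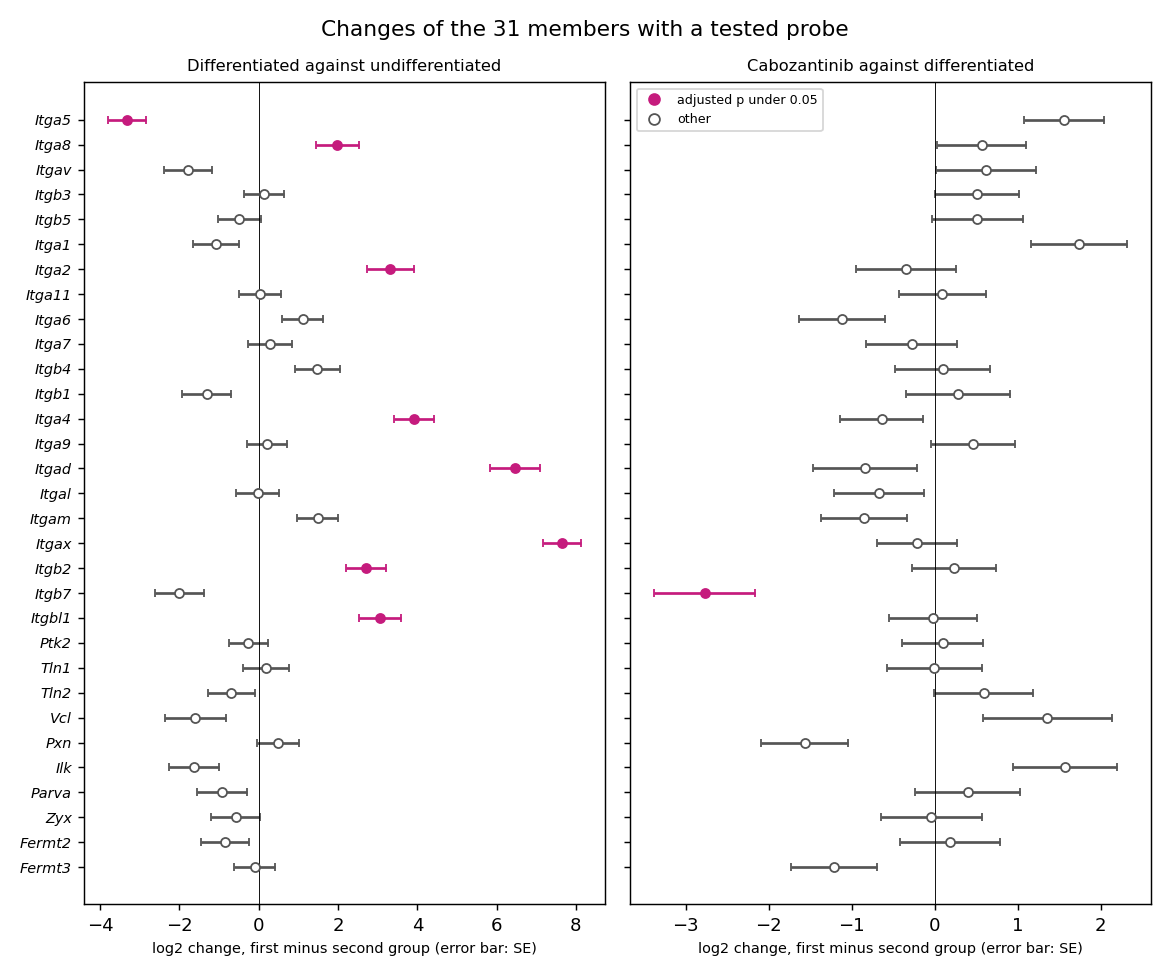
Log2 change with its SE (horizontal axis) of the brightest tested probe of the 31 genes, differentiated minus undifferentiated on the left and cabozantinib minus differentiated on the right, filled where the limma adjusted p was under 0.05. There are 8 filled points on the left, with Itgax at 7.64 and Itga5 at -3.32, and 1 on the right, Itgb7 at -2.77. The left points of Itgad and Itga2 are not exact changes, since neither was well above background in undifferentiated cells.

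With differentiation 0 of the 10 adaptors passed by the brightest probe, while 8 of the 10 had a log2 change below 0 (median -0.64, beside 0.08 over all probes). The direction of that median turned when 1 array was left out, to 0.13 without undifferentiated replicate 1 and to just above 0 without differentiated replicate 1. Tln1, the main talin of mesenchymal cells, was at 6.61 and 5.53 in undifferentiated and 5.95 and 6.56 in differentiated cells (log2 change 0.19). Zyx, the zyxin of mature adhesions, was at 7.09 and 5.83 against 5.39 and 6.36 (log2 change -0.59), and Ptk2, focal adhesion kinase, at 0.96 and 0.75 against 0.73 and 0.44 (log2 change -0.27). The groups overlapped for Tln1 and Zyx, and for Ptk2 they differed by less than 1 SE. Pxn, which encodes paxillin, had overlapping groups at -1.93 and -2.88 against -2.07 and -1.77. Ilk, integrin-linked kinase, was at 2.37 and 3.67 and then 1.91 and 0.84, a log2 change of -1.64 without overlap (limma adjusted p = 0.155; 0.0243 without undifferentiated replicate 1) that ran from -2.71 to -0.57 with 1 array left out. Fermt3, the kindlin of blood cells, was at -3.63 and -4.40 and then -4.31 and -3.91 (log2 change -0.10), with overlapping groups. Fermt2, the kindlin of most other cells, had a log2 change of -0.85 by each of its 2 tested probes, neither past the test.

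Vcl and Parva gave different calls by probe. With the tested probes of a gene averaged, both were called lower with differentiation. The log2 changes were -2.28 for Vcl (limma adjusted p = 0.036) and -2.18 for Parva (limma adjusted p = 0.0197). By its brightest probe Parva, an actin-binding partner of integrin-linked kinase, was at 5.21 and 3.81 and then 3.12 and 4.05 (log2 change -0.93, limma adjusted p = 0.502). By a dimmer probe it fell from 0.54 and 1.31 to -2.54 and -2.47, a log2 change of -3.43 (SE 0.57) or 10.8-fold lower (limma adjusted p = 0.00509). The brightest Vcl probe, for vinculin, was at -0.13 and 2.58 and then -0.42 and -0.34 (log2 change -1.60, limma adjusted p = 0.283; 0.0311 without undifferentiated replicate 1, with a log2 change from -3.18 to -0.024 when 1 array was left out). Its dimmer probe was at -3.46 and -3.03 in undifferentiated cells and not well above background in differentiated cells (-6.16 and -6.23), at least 6.35-fold lower (limma adjusted p = 0.0049), although it was tested only through the groups in which it was high. The dimmer Parva probe had groups that did not overlap. For the dimmer Vcl probe a difference was built into the test, and its p is not read as support. Tln2, the second talin, had log2 changes of -0.70 and 0.33 by its 2 tested probes. Over the 40 tested probes of the set, 7 were called higher and 3 lower, beside 4.97% and 5.06% of all probes. Itgad, Itga2 and the dimmer Vcl probe were among those called. Which transcripts the probes of a gene detect was not examined.

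**Figure D4:**
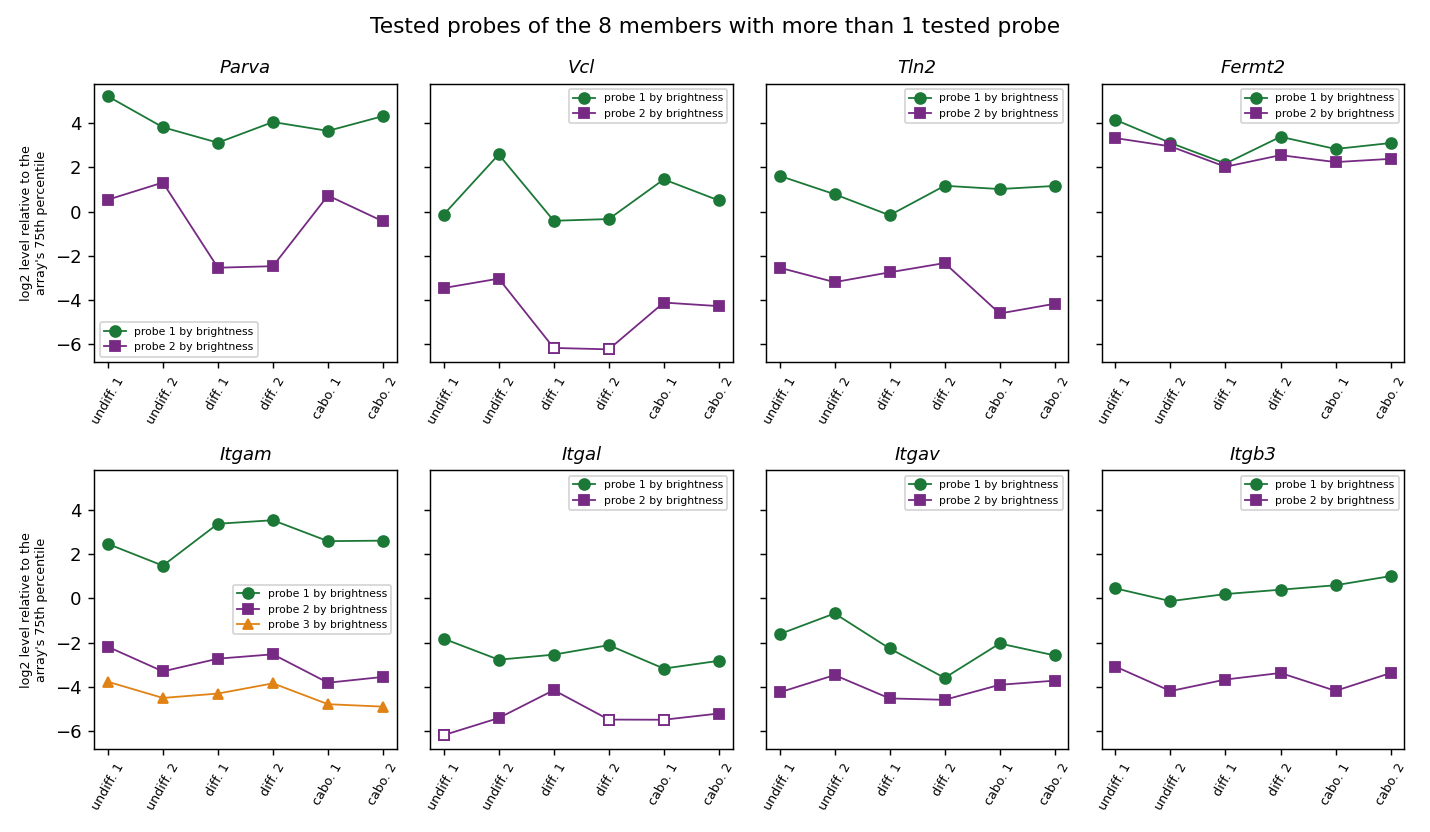
Log2 levels relative to the array's 75th percentile (vertical axis) of every tested probe of the 8 genes with more than 1, along the 6 arrays, with 1 line per probe and open markers where not well above background. The dimmer Parva and Vcl probes dropped on both differentiated arrays and stood higher with cabozantinib, while the 2 Fermt2 probes ran alongside each other.

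The second comparison set 30 days in differentiation medium with cabozantinib against the same medium without it, and asked what the drug did to differentiating cells. It shares the differentiated arrays with the first. Of the 31 genes, 1 fell and 0 rose. Of all 27230 probes tested, 2.56% fell and 0.14% rose, and the smallest limma adjusted p was 0.0324. At an unadjusted p under 0.05 with more than 2-fold, 6 of the 31 passed, beside 23.3% of all probes. The median log2 change was 0.37 over the matrix-binding chains, -0.75 over the leukocyte chains and 0.14 over the adaptors, beside -0.27 over all probes. The adaptor median turned to -0.33 without differentiated replicate 1 and was also below 0 without cabozantinib replicate 2. The call that was made did not hold when arrays were scaled on spots in place of probes, or by quantiles, where 0 of the 31 passed. Over all probes the 734 calls became 1 and 0 under these scalings, in that order.

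The gene that fell was Itgb7. Its log2 levels of -1.60 and -1.50 in differentiated cells became -4.60 and -4.05 with cabozantinib, well apart and after 1.28 and -0.37 in undifferentiated cells. The log2 change was -2.77 (SE 0.61), 6.84-fold lower, at the edge of the threshold (limma adjusted p = 0.0491; 0.0286 without the replicate number as a block). The call was lost without differentiated replicate 1 (0.0503) or 2 (0.316) and without cabozantinib replicate 1 (0.584) or 2 (0.0564). Its usual partner Itga4 did not pass, at 2.90 and 3.26 against 2.30 and 2.59 (log2 change -0.64, limma adjusted p = 0.545).

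With cabozantinib 0 of the 14 matrix-binding chains passed. Itga5 was at -2.53 and -2.60, 2.94-fold above the differentiated mean (log2 change 1.55, limma adjusted p = 0.0914; 0.03 without the block and 0.0297 without either undifferentiated array). Itga1 was at -0.70 and -1.97 against -2.73 and -3.41, a log2 change of 1.74 (SE 0.58, limma adjusted p = 0.11; 0.0303 without either undifferentiated array) that ran from 1.1 to 2.38 with 1 array left out. On each cabozantinib array both genes were above both differentiated arrays. Itga6 was at -1.09 and -0.97 against -0.24 and 0.41 (log2 change -1.12, limma adjusted p = 0.231). For Itga8, Itgav, Itgb3 and Itgb5 the log2 changes were 0.57, 0.62, 0.51 and 0.51 by the brightest probe, with limma adjusted p-values between 0.648 and 0.703. A dimmer probe of Itgb3 had a log2 change of -0.26 (limma adjusted p = 0.902), and one of Itgav 0.74 (limma adjusted p = 0.454). For Itga11, Itgb4, Itga2 and Itga9 they were 0.09, 0.10, -0.35 and 0.46.

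Among the leukocyte chains that had risen with differentiation, Itgax was at 3.49 and 3.72 with cabozantinib (log2 change -0.22, limma adjusted p = 0.902) and Itgb2 at 2.95 and 3.0 (0.23, limma adjusted p = 0.898). Itgad was at -2.07 and -1.85 (log2 change -0.84, limma adjusted p = 0.517), below both differentiated arrays. Itgam was at 2.59 and 2.61 (log2 change -0.86, limma adjusted p = 0.39). Of the 17 macrophage and osteoclast markers tested, 0 rose and 0 fell, beside 0.14% and 2.56% of all probes, with a median log2 change of -0.34. The SE of these changes was between 0.48 and 0.63. In this comparison log2 changes of 1.55 for Itga5 and 1.74 for Itga1 did not pass.

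Several adaptors and dimmer probes stood apart from the differentiated arrays. Ilk was at 3.25 and 2.64, above both differentiated arrays (log2 change 1.57, limma adjusted p = 0.167; 0.0309 without either undifferentiated array, with a log2 change from 0.86 to 2.28 when 1 array was left out). Pxn was at -3.57 and -3.41, below them (log2 change -1.57, limma adjusted p = 0.113; 0.0298 without either undifferentiated array). The dimmer Parva probe rose to 0.73 and -0.44, a log2 change of 2.65 (SE 0.57) or 6.26-fold, and it too lay at the threshold (limma adjusted p = 0.0489), while the brightest Parva probe changed by 0.40 (limma adjusted p = 0.839). The dimmer Vcl probe came back above background at -4.11 and -4.27, at least 3.29-fold higher without passing (limma adjusted p = 0.0557). Tln2's dimmer probe, at -4.61 and -4.17, had a log2 change of -1.85 (limma adjusted p = 0.0741), and its brighter probe 0.59. Ptk2, Tln1 and Zyx had log2 changes of 0.10, 0.00 and -0.04. The study, by contrast, lists Ptk2 among the genes lowered by cabozantinib on its arrays. Here Ptk2 was read by the 1 probe named for it through RefSeq accessions, and probes without such a name were not read for any gene. The cause of the different readings of Ptk2 was not tested.

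The change with cabozantinib depended on level over all probes. Its median was -1.79 over 800 tested probes with a mean log2 level below -6, -1.10 over 6573 from -6 to -4, -0.56 over 5896 from -4 to -2, and -0.08 over 4212 from -2 to 0. Above 0 the medians lay between -0.13 and -0.03. The lower values of the dim genes have this beside them. Of the set's probes, 4 of 6 between -6 and -4 and 6 of 9 between -4 and -2 were lower with cabozantinib, beside 80.2% and 70.9% of all tested probes of these classes. Among these were Pxn, the dimmer Tln2 probe and Fermt3, whose log2 levels went from -4.31 and -3.91 to -5.21 and -5.45 (log2 change -1.21, limma adjusted p = 0.193). Fermt3 was not well above background on cabozantinib replicate 2. The markers Cd3e (log2 change -0.98) and Gp9 (-1.99), of T cells and platelets, were also dim and lower, neither past the test. Of 4 platelet, 5 endothelial and 8 muscle markers tested, 1 each fell, beside 2.56% of all probes. These were Gp1ba (at least 1.6-fold), Cdh5 (log2 change -2.40) and Mylpf (at least 3.61-fold), all at limma adjusted p-values between 0.0474 and 0.0488. Gp1ba and Mylpf were tested only through the groups in which they were high. The median log2 change of the lymphocyte markers was -1.48. The mean level of Itgb7 lay between -2 and 0 over the 6 arrays, of which the undifferentiated ones were its highest. On the arrays of this comparison it was lower, at -1.60 and -1.50 and then -4.60 and -4.05. The part of level in the change of Itgb7 was not tested.

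**Figure D5:**
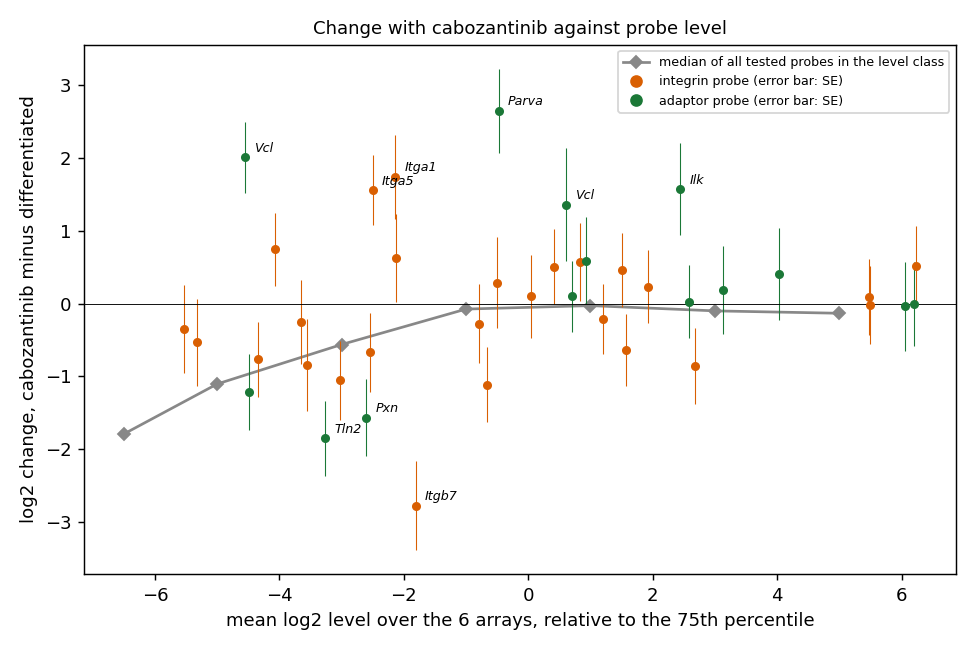
Log2 change with its SE, cabozantinib minus differentiated (vertical axis), against the mean log2 level over the 6 arrays (horizontal axis), for the 40 tested probes of the set, orange for integrins and green for adaptors, with the median over all tested probes of each level class as a grey line. The grey line drops to -1.79 at the dim end, while Itgb7 at -2.77 lies well below it and the dimmer Parva probe at 2.65 and the dimmer Vcl probe well above it.

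Set against undifferentiated cells on the other slide, cabozantinib-treated cells had 7 of the 31 genes higher and 2 lower, beside 4.47% and 9.19% of 27233 probes. By the looser limit, 11 of the 31 passed, beside 32% of all probes. The median log2 change was 1.79 over the leukocyte chains, 0.38 over the matrix-binding chains and -0.39 over the adaptors, beside -0.39 over all probes. With probes restricted to those above background on all arrays, the first of these was 0.63 and the second 0.12. The adaptor median turned to 0.072 without undifferentiated replicate 1. The genes higher were Itgax (log2 change 7.43, 172-fold), Itgad (at least 17.3-fold), Itga4 (3.28), Itgbl1 (3.03), Itgb2 (2.95), Itga2 (at least 2.68-fold) and Itga8 (2.55), which are those that rose with differentiation alone. Both comparisons use the same undifferentiated arrays, so the match is not independent, and Itgad and Itga2 were again tested only through the groups in which they were high. With normexp background correction the log2 changes of Itgad and Itga2 were 1.73 and 0.20, less than their bounds. Itgb7 was 27.4-fold lower (log2 change -4.78, limma adjusted p = 0.00214) and Itga5 lower by a log2 change of -1.76 (limma adjusted p = 0.0406). The Itga5 call was lost without any 1 of the differentiated (0.0638 for each) or cabozantinib arrays (0.387 without replicate 1 and 0.385 without replicate 2). Without cabozantinib replicate 2 the calls of Itga2 (0.151), Itgb2 (0.101), Itgbl1 (0.0799) and Itga8 (0.0937) were lost too, and 4 genes passed. Without cabozantinib replicate 1 Itga8 alone was lost beside Itga5 (0.168).

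Most ligands of these receptors did not pass the test with differentiation. Of 35 ligand genes listed, 32 were tested, and 3 rose and 3 fell, beside 4.97% and 5.06% of all probes, with a median log2 change of 0.28. Those that rose were Lama5 and Lama1, alpha chains of laminins, and Ibsp, the bone sialoprotein bound through its RGD tripeptide. Lama5 went from log2 levels of 0.30 and 0.16 to 3.43 and 3.56 (change 3.27, limma adjusted p = 0.00299), Lama1 from 0.85 and -0.27 to 2.80 and 2.20 (change 2.21, limma adjusted p = 0.0304), and Ibsp from 2.95 and 2.46 to 4.74 and 5.09 (change 2.20, limma adjusted p = 0.0219). In each the groups were separate. Those that fell were Spp1, which encodes osteopontin, Lamb2 and Lama4. Spp1 went from 3.64 and 5.31 to 1.20 and 0.41 (change -3.67, limma adjusted p = 0.0318), Lamb2 from -0.74 and -1.76 to -5.39 and -4.18 (change -3.54, limma adjusted p = 0.00566) and Lama4 from 0.48 and 0.86 to -0.74 and -2.35 (change -2.22, limma adjusted p = 0.0407). Lamb2 was not well above background on differentiated replicate 1, so its change is not exact. With cabozantinib against differentiated cells 0 of the 32 passed, and the outermost were Lama4 at a log2 change of 1.54 (limma adjusted p = 0.149) and Icam2, a ligand of beta2 integrins, at -1.74 (limma adjusted p = 0.0935). Against undifferentiated cells 4 were higher, Ibsp (3.71), Lama1 (2.70), Lama5 (1.82) and Postn (1.70), and 2 lower, Spp1 (-3.34) and Lamb2 (-2.16). Of all probes 4.47% were higher and 9.19% lower in that comparison.

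Other genes of the focal adhesion were counted likewise. Of 44 listed, 43 had a probe and 39 were tested, and 5 rose and 1 fell with differentiation, beside 4.97% and 5.06% of all probes, with a median log2 change of -0.12. The highest were Parvg, the parvin of blood cells (log2 levels of -3.30 and -2.74, then 0.64 and -0.44, change 3.12), Lpxn, the paxillin relative leupaxin (-0.32 and -0.76, then 2.49 and 2.64, change 3.11), and Vav1, an exchange factor of blood cells (1.31 and 0.46, then 3.65 and 4.02, change 2.95), with limma adjusted p-values of 0.00663, 0.00416 and 0.00766. All 3 are best known from leukocytes or osteoclasts, and 9 of the 17 tested macrophage and osteoclast markers rose beside them. The part of those cells was not tested. The other two were Skap2 (2.02), an adaptor of leukocyte adhesion, and Tns1 (1.98), a tensin. With cabozantinib against differentiated cells 0 of the 39 passed, with Tns3 the highest at 1.49 (limma adjusted p = 0.171) and Actn1 the lowest at -1.08 (limma adjusted p = 0.216). Against undifferentiated cells 5 were higher, Vav1 (2.87), Parvg (2.71), Tns1 (2.39), Lpxn (2.25) and Skap2 (1.81), and 2 lower, Crk (-2.58, limma adjusted p = 0.0398) and Actn1 (-2.22, limma adjusted p = 0.0194). Actn1 was not well above background on cabozantinib replicate 2, so its changes with cabozantinib are not exact. Of all probes 4.47% were higher and 9.19% lower in that comparison.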

How the data were processed

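Total RNA of each sample was labelled with 1 colour and hybridised to Agilent whole mouse genome arrays, read with Feature Extraction 11.0.1.1 per the file headers. The scanner files deposited by the authors hold processed signal intensity, background-subtracted on a linear scale. A further set of values deposited by the authors holds log2 values of the same arrays, whose medians were near 7.50 and which correlated with the scanner values at 0.998 or more. Their normalisation is not stated there, so they served as an alternative. The comparisons use no statistics of the authors.

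In R 4.3.3 with data.table (version 1.17.8), control spots and outlier flags were removed, spots of a probe averaged, log2 taken and each array's 75th percentile over probes subtracted. This order was used because an earlier analysis of these data did so, and its effect on the number of calls was known when it was chosen. The order with the percentile over spots stands as an alternative. Probes that at least 2 of 6 arrays read well above background were tested with limma 3.58.1 (lmFit and eBayes), all 6 arrays in 1 fit with condition and replicate number, since the study's methods name a paired t-test, although in general terms and without stating that the arrays were paired. Residual degrees of freedom were 2, with prior degrees of freedom of 7.69. The p-values were adjusted by Benjamini-Hochberg over all probes, and 7 probes lacked a value for 1 or more comparisons. A gene was read by its brightest tested probe. Of 39429 probes, 27234 (69.1%) were named through RefSeq accessions. Where all arrays of a group were not well above background, the fold is a bound against the lowest signal well above background on each array, or the probe's own where higher. Such a bound holds for the processed signal only and can fail with another background correction. The steps were tested on simulated data. Array number limits the precision.

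The correlation of deviations of same-numbered arrays was -0.51 between undifferentiated and differentiated, -0.53 between undifferentiated and cabozantinib and 0.26 between differentiated and cabozantinib arrays, so the numbers are not shown to pair the arrays, and the fit without them is given as an alternative. The genes and lists were chosen with earlier results of these data known. All genes of the set are named. Apart from some listed genes that are not reported here, of ligands and other focal adhesion genes the 3 highest and 3 lowest that passed are named, or the outermost where none passed, and of marker lists the brightest and the defining genes. Genes named outside this rule (Mrc1, Calcr, Runx2, Pth1r, Sp7, the called genes of the other marker lists, and Lyz2, Ocstamp, Oscar, Skap2, Tns1, Lpxn and Postn) were chosen after their values were seen. Promoters came from RefSeq in GRCm38.p6 and were searched in Python 3.11.15.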

Additional observations from a re-analysis of the deposited data

How the results depend on the processing

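Differentiated against undifferentiated cells gave 8 calls among the 31 genes, 4 with normexp on median signal and background, 0 with the methods' paired t-test after Benjamini-Hochberg adjustment, and 6 to 14 when 1 array was left out, with 14 without undifferentiated replicate 1, where 5313 of all probes passed in place of 2730. Cabozantinib against differentiated cells gave 1 call, and 0 with quantile normalisation, the authors' values, normexp, dim probes kept, probes restricted to those read well above background by all 6 arrays, the paired t-test or the 75th percentile over spots, an alternative chosen after seeing the data. It gave 2 without the replicate block, 5 from only the 4 arrays compared, and 0 to 5 with 1 array left out (5 without either undifferentiated array, 0 without any 1 of the others). Over all probes these were 734 calls, but 1 with the percentile over spots, 2 with probes restricted to those above background throughout, 0 with quantile normalisation, 3414 without the block and 6475 from 4 arrays. The other two comparisons had 3789 and 6653 calls over all probes without the block. Cabozantinib against undifferentiated cells gave 9 calls, 5 with normexp, 0 with the paired t-test, and 4 to 15 with 1 array left out (15 without undifferentiated replicate 2, where 9961 of all probes passed in place of 3719, and 4 without cabozantinib replicate 2). Exchanging the undifferentiated replicate numbers in the block, also chosen after seeing the data, gave 15 and 7 calls in the first pair of comparisons, beside 7363 and 8295 of 27230 probes. At the methods' threshold of 2-fold with an unadjusted p under 0.05, the paired t-test passed 2, 2 and 3 of the 31 genes. The median log2 change of the leukocyte chains with differentiation was 1.48 with probes restricted to those above background throughout and 1.63 when the probes of a gene were averaged, and with cabozantinib against undifferentiated cells it was 0.63, 1.41 and, with normexp, 1.21. That of the matrix-binding chains was 0.12 in the last comparison with the strictest filter. With 1 array left out, the medians of matrix-binding, leukocyte and adaptor genes ran from -0.24 to 0.61, 1.92 to 2.28 and -1.07 to 0.13 in the first comparison, 0.19 to 0.40, -1.10 to -0.28 and -0.33 to 0.75 in the second, and 0.12 to 0.70, 1.57 to 2.01 and -1.22 to 0.072 in the last. The rises of Itgax and Itga4 with differentiation passed under 15 of 16 alternatives, and did not pass with the paired t-test (adjusted p = 0.619 and 0.832). The rise of Itga8 passed under 5 of 16, and the fall of Itgb7 with cabozantinib under 5 of 16. Over these 16 the adjusted p of Itgb7 ran from 0.0286 to 1.0. With normexp the changes of Itga5 (-2.29, adjusted p = 0.0558), Itga8 (0.175), Itgad (0.139) and Itga2 (1.0) with differentiation did not pass. No called change turned its sign under any alternative run. Quantile normalisation put the median log2 change of all probes with cabozantinib against differentiated cells at -0.06 in place of -0.27, and no list's median changed sign under a scaling. The causes of these differences were not tested.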
